A study of Sus scrofa with 12 samples.

Results

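TXNIP and its arrestin-domain relatives ARRDC4, ARRDC3 and ARRDC2 were examined together with the glucose transporter genes SLC2A1 and SLC2A3 and with MLXIP, the gene of the transcription factor MondoA. These 7 genes were chosen by symbol, because TXNIP and ARRDC4 had lower values with Activin A than with SB431542 in the sequencing tables, so all differences of the 7 genes between those treatments are given below as a description with no test. Of the 7 genes, 5 had a row under their symbol among the 24358 gene rows of each table: TXNIP, ARRDC4, ARRDC3, ARRDC2 and MLXIP. SLC2A1 and SLC2A3 were not analysed here, and the transporter family is described by its other members.

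The cells, called PC-iPS, were induced pluripotent stem cells that had been reprogrammed from adult pig pericytes, the cells that wrap small blood vessels. Bulk RNA sequencing covered 12 libraries in 4 groups of 3. WT PC-iPS carried no insertion. NANOG tdTomato knock-in positive PC-iPS carried a FLAG tag, the red fluorescent protein tdTomato and a selection cassette at NANOG, with tdTomato driven by the NANOG gene itself. The third and the fourth group were labelled Activin A and SB431542. In the study's methods these agents were given to knock-in cells, so both treated groups share the insertion, and its screening medium held CHIR99021, dimethindene maleate, minocycline and vitamin C but no LIF, whereas routine culture also held LIF. Activin A is a ligand of the TGF-β family that signals through SMAD2 and SMAD3, and SB431542 is a small molecule that blocks the receptors for Activin and TGF-β. Dose and duration for the sequenced cells are not in the labels. The 3 knock-in lines were grown from selected, mixed populations that may hold heterozygous, homozygous and unedited cells, and nothing in the labels says that the WT libraries came from separate derivations, so p-values measure the spread between these libraries.

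As background, TXNIP encodes thioredoxin-interacting protein, an alpha-arrestin that binds reduced thioredoxin and also promotes the removal of the glucose transporters GLUT1 (SLC2A1) and GLUT4 (SLC2A4) from the cell surface. ARRDC4 is its closest relative and is likewise able to limit glucose uptake. Both genes are classical targets of MondoA, which with its partner MLX senses glucose 6-phosphate, moves to the nucleus and activates them, so that a cell rich in sugar phosphates limits its own glucose intake. Pluripotent cells are known for rapid glycolysis.

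Expression was measured as FPKM, a fragment count scaled to gene length and to the size of the library, which corrects for gene length and so allows levels of different genes to be compared. Read totals were not analysed here, so absolute depth is unknown and no counting error is given. Relative depth, estimated from the spacing of values under 0.3 FPKM, was 0.566 to 0.633 in WT libraries, 0.732 to 1 in knock-in libraries, 0.859 to 0.979 with Activin A and 0.841 to 0.946 with SB431542, each relative to knock-in library 1. Mitochondrial genes took 13.9 to 16.4% of all FPKM in WT libraries and 9.43 to 11.5% in the other groups. The summed level of 12 fibroblast markers was 35.2 to 47.8 FPKM in WT, 69.8 to 99.8 in knock-in, 87.7 to 129 with Activin A and 56.9 to 62.1 with SB431542, and POSTN of that list was at 0 in all knock-in and SB431542 libraries. The summed level of 8 pericyte markers was 28.7 to 31.8 FPKM in WT, 50.2 to 52.1 in knock-in, 44.8 to 50.6 with Activin A and 59.7 to 61.0 with SB431542, with none of them at 0 throughout a group. Of 9 pluripotency markers 7 had a row, and these summed to 136 to 155 FPKM in WT, 282 to 496 in knock-in, 292 to 488 with Activin A and 318 to 630 with SB431542, with TDGF1 at 0 in all knock-in and SB431542 libraries. The part of these marker and depth differences in the results below was not tested.

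The labels were checked on NANOG and on Activin targets. NANOG was at 17.9 ± 9.02 FPKM in WT, 74.5 ± 24.8 in knock-in, 154 ± 43.0 with Activin A and 16.9 ± 8.89 with SB431542 (SD, n = 3 each), with the caution that pigs carry near-identical NANOG loci on separate chromosomes whose reads may be mixed. SMAD7, a feedback inhibitor that SMAD signalling induces, was at 7.34 ± 0.698 FPKM with Activin A and 1.41 ± 0.321 with SB431542 (limma, log2 fold change 1.80, adjusted p = 0.024, and 0.054 to 0.15 without any 1 library). LEFTY2, an Activin antagonist, was at 1.12 ± 0.302 FPKM with Activin A and was listed at 0 in all 3 SB431542 libraries. It passed the filter only through the Activin A libraries, so its values are given as a description. ID1, which the study counts among SMAD2/3 target genes, was at 18.6 ± 5.56 FPKM with Activin A and 7.99 ± 6.35 with SB431542. Its libraries overlapped and it did not pass the test (log2 fold change 1.31, limma adjusted p = 0.32). The treated groups thus differed in the direction of their labels in NANOG and SMAD7, and in ID1 only by their means.

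In knock-in cells, TXNIP and ARRDC4 were lower than in WT cells, and the other arrestin-domain genes and MLXIP did not pass the test. Differences were tested with limma on log2(FPKM + 1) over 14014 genes, with p-values adjusted after Benjamini and Hochberg. A gene counted as called when its log2 fold change was 1 or more in size and its adjusted p did not exceed 0.05. A fold change on this scale understates the change of low genes, so plain ratios of mean FPKM stand beside it. Of the 5 genes, all of which passed the filter on low values, 2 were called lower and 0 higher, where 0.706% of all genes tested were called lower and 1.61% higher. The same 2 were the ones whose knock-in and WT libraries did not overlap, which held in the lower direction for 16.7% of all genes and in the higher direction for 19%. Between Activin A and SB431542, the contrast that chose the genes, 3 of the 5 were lower with Activin A and 1 was higher without overlap of the libraries, beside 10.8% and 9.19% of 13999 genes.

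**Figure D1:**
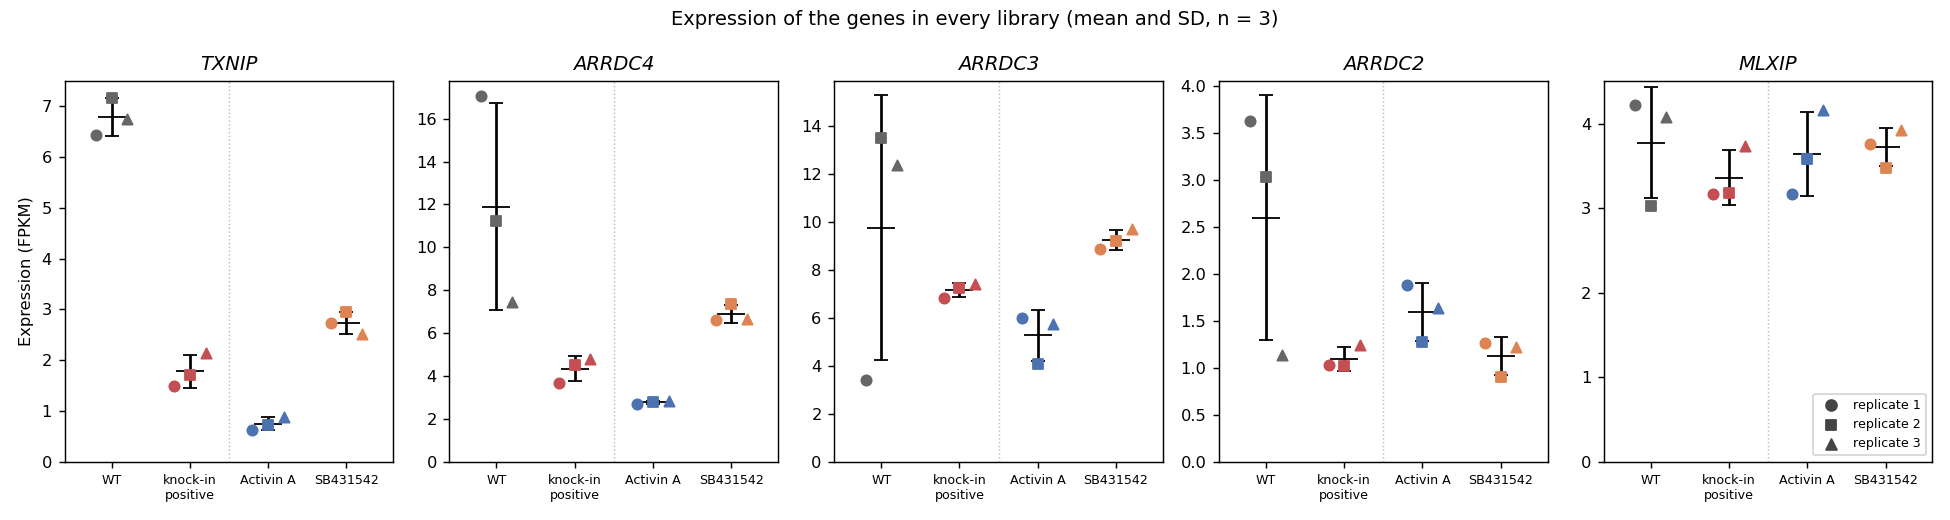
Expression in FPKM (vertical axes, each from 0) of the 5 measured genes in all 12 libraries, with circles, squares and triangles for replicates 1, 2 and 3 and black bars for the mean and SD of each group of 3; the dotted line separates the 2 tables. The 3 WT libraries of TXNIP lie between 6.43 and 7.17 FPKM and the 3 Activin A libraries between 0.626 and 0.882, while MLXIP spans 3.02 to 4.23 FPKM over all 12.

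TXNIP (ENSSSCG00000031262) separated all 4 groups. Its gene lies at chr4:99348589-99351760 by RefSeq coordinates on assembly Sscrofa11.1, spans 3172 bp and overlaps no other annotated gene, with POLR3GL as the next named neighbour. WT libraries 1, 2 and 3 measured 6.43, 7.17 and 6.75 FPKM, a mean of 6.78 ± 0.374 (SD, n = 3). Knock-in libraries 1, 2 and 3 measured 1.49, 1.71 and 2.14 FPKM, a mean of 1.78 ± 0.330 (SD, n = 3). Every knock-in library was thus far below every WT library, and the spread within each group was small against the gap. TXNIP fell 3.81-fold, with a log2 fold change of -1.49 (SE 0.15, 95% confidence interval -1.84 to -1.15, limma adjusted p = 0.0044). An exact two-sided permutation test gave p = 0.1, the smallest value that 3 against 3 libraries allow. The call held in each of the 6 fits that left out 1 library, with limma adjusted p from 0.011 to 0.024, and when libraries were rescaled to the FPKM outside mitochondrial genes, where the log2 fold change was -1.53 (adjusted p = 0.0048). In bulk RNA, fewer cells that express a gene and less of its RNA per cell cannot be told apart.

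With Activin A, TXNIP measured 0.626, 0.730 and 0.882 FPKM in libraries 1, 2 and 3, a mean of 0.746 ± 0.129 (SD, n = 3). With SB431542 it measured 2.74, 2.95 and 2.52 FPKM, a mean of 2.74 ± 0.218 (SD, n = 3). The treated libraries did not overlap, and the mean was 3.67-fold higher with SB431542, a difference of -1.10 in mean log2(FPKM + 1) for Activin A minus SB431542. Same-numbered treated libraries were taken as pairs of 1 knock-in line, because the labels number them alike and their values deviated together, and within pairs 1, 2 and 3 the SB431542 value was 4.38, 4.04 and 2.85 times the Activin A value. The untreated knock-in libraries lay between the treated groups, 2.38-fold above the Activin A mean and 1.54-fold below the SB431542 mean, and no library of these 3 groups overlapped another group. WT lay above all of them, 2.48-fold over SB431542. This order joins tables that were not tested against each other, and the knock-in libraries are not labelled as an untreated control of the treatment.

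ARRDC4 (ENSSSCG00000002252) had the same order of groups as TXNIP, with a wider spread in WT. It lies at chr7:81656760-81669584 (Sscrofa11.1, 12825 bp), inside the span of a long non-coding RNA gene, LOC106504490, and whether the counting used strand is not given in the sources used here. WT libraries 1, 2 and 3 measured 17.0, 11.2 and 7.43 FPKM, a mean of 11.9 ± 4.84 (SD, n = 3). Knock-in libraries measured 3.68, 4.50 and 4.80 FPKM, a mean of 4.33 ± 0.582 (SD, n = 3). WT library 3 came closest to the knock-in libraries but did not reach them. ARRDC4 fell 2.75-fold, with a log2 fold change of -1.21 (SE 0.27, 95% confidence interval -1.84 to -0.59, limma adjusted p = 0.040), and the exact permutation p was 0.1. This call was fragile. It held without WT library 3, where the log2 fold change was -1.48 (limma adjusted p = 0.017), and was lost when any of the other 5 libraries was left out, with log2 fold changes from -1.28 to -0.94 and adjusted p from 0.072 to 0.138. It was also lost with no filter on low values (adjusted p = 0.076). The direction stayed lower in all of these fits.

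In the treated cells ARRDC4 was tightly grouped. Activin A libraries 1, 2 and 3 measured 2.70, 2.78 and 2.84 FPKM, a mean of 2.77 ± 0.0691 (SD, n = 3). SB431542 libraries measured 6.62, 7.35 and 6.66 FPKM, a mean of 6.88 ± 0.412 (SD, n = 3). The mean was 2.48-fold higher with SB431542, a difference of -1.06 in mean log2(FPKM + 1) for Activin A minus SB431542, and within pairs 1, 2 and 3 the ratio was 2.45, 2.64 and 2.34. Knock-in cells again lay between, 1.56-fold above Activin A and 1.59-fold below SB431542, and WT lay 1.73-fold above SB431542. No library of ARRDC4 overlapped another group in this order.

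TXNIP and ARRDC4 moved together across groups but not in a fixed ratio. The ratio of TXNIP to ARRDC4 FPKM was 0.405, 0.379 and 0.445 in knock-in libraries 1, 2 and 3 and 0.414, 0.402 and 0.378 in the SB431542 libraries, so these groups overlapped. With Activin A it was 0.232, 0.263 and 0.311, below every library of the other groups. In WT libraries 1, 2 and 3 it was 0.377, 0.639 and 0.909, because ARRDC4 varied 2.29-fold among WT libraries while TXNIP varied 1.12-fold. WT library 1 had the highest ARRDC4 and the lowest TXNIP of its group. Across all 12 libraries the Pearson correlation of log2(FPKM + 1) between TXNIP and ARRDC4 was 0.927, a description of 4 groups that differ in level and not of independent points.

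**Figure D2:**
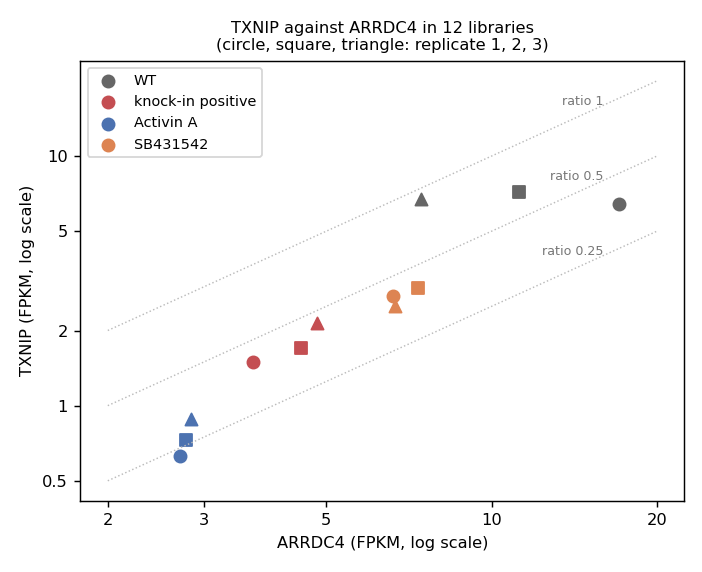
TXNIP (vertical axis, FPKM) against ARRDC4 (horizontal axis, FPKM), both on log scales, in 12 libraries coloured by group, with dotted lines at ratios of 0.25, 0.5 and 1. Activin A libraries sit at the lower left near the ratio of 0.25, knock-in and SB431542 libraries lie along a ratio of 0.378 to 0.445, and WT libraries at the upper right range from 0.377 to 0.909.

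ARRDC3 (ENSSSCG00000014156, chr2:98430451-98444835, Sscrofa11.1) encodes an alpha-arrestin that guides membrane receptors such as the beta-2 adrenergic receptor into ubiquitin-dependent trafficking. WT libraries 1, 2 and 3 measured 3.41, 13.5 and 12.4 FPKM, and knock-in libraries measured 6.83, 7.24 and 7.43 FPKM. WT library 1 was thus below and WT libraries 2 and 3 above every knock-in library. The means were 9.76 ± 5.53 in WT and 7.17 ± 0.307 in knock-in (SD, n = 3), and the log2 fold change of -0.22 did not pass the test (SE 0.42, 95% confidence interval -1.20 to 0.77, limma adjusted p = 0.77, exact permutation p = 1). Single WT libraries decided its direction. Without WT library 1 the log2 fold change was -0.77 (limma adjusted p = 0.044), which is short of the fold change threshold, and without WT library 2 or 3 it was 0.089 or 0.030. Activin A libraries measured 6.01, 4.06 and 5.74 FPKM and SB431542 libraries 8.88, 9.21 and 9.71 FPKM. All 3 SB431542 libraries lay above all 3 Activin A libraries, with a ratio of means of 1.76 and a difference of -0.73 in mean log2(FPKM + 1) for Activin A minus SB431542. As for TXNIP and ARRDC4, the knock-in libraries lay between the treated groups without overlap, but WT and SB431542 overlapped.

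ARRDC2 (ENSSSCG00000013893, chr2:59771104-59778500, Sscrofa11.1), a less studied family member, was the only one of the 4 arrestin genes measured above the filter with a higher mean in Activin A than in SB431542. Activin A libraries 1, 2 and 3 measured 1.89, 1.27 and 1.63 FPKM and SB431542 libraries 1.27, 0.900 and 1.22 FPKM. The groups came within rounding of each other at their edges without overlapping, and the Activin A mean was 1.42-fold higher, a difference of 0.28 in mean log2(FPKM + 1). WT libraries measured 3.63, 3.04 and 1.13 FPKM and knock-in libraries 1.03, 1.02 and 1.24 FPKM. WT library 3 lay inside the knock-in range, and WT libraries 1 and 2 lay far above it. The log2 fold change of -0.71 did not pass the test (SE 0.28, 95% confidence interval -1.36 to -0.06, limma adjusted p = 0.15, exact permutation p = 0.2), and without WT library 3 it was -1.05 and would be called (limma adjusted p = 0.017). In both ARRDC4 and ARRDC2, WT library 3 was the WT library nearest to the knock-in cells, whereas in ARRDC3 it was one of the high ones. ARRDC5, the remaining family member with a row, was at or near 0 in all groups and did not pass the filter.

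MLXIP (ENSSSCG00000009794, chr14:30575098-30646275, Sscrofa11.1), which encodes MondoA itself, showed no such order. WT libraries 1, 2 and 3 measured 4.23, 3.02 and 4.08 FPKM and knock-in libraries 3.17, 3.18 and 3.73 FPKM. Activin A libraries measured 3.17, 3.59 and 4.16 FPKM and SB431542 libraries 3.77, 3.48 and 3.92 FPKM. All 4 groups overlapped, and their means lay between 3.36 and 3.78 FPKM. The log2 fold change between knock-in and WT was -0.12 (SE 0.16, 95% confidence interval -0.50 to 0.25, limma adjusted p = 0.64, exact permutation p = 0.4), an interval that leaves room for a modest change in either direction. Between Activin A and SB431542 the difference in mean log2(FPKM + 1) was -0.03. Within libraries, the ratio of TXNIP to MLXIP FPKM was therefore 1.52 to 2.37 in WT, 0.470 to 0.573 in knock-in, 0.198 to 0.212 with Activin A and 0.642 to 0.849 with SB431542. MondoA is controlled mainly by its location in the cell, which RNA levels do not report.

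**Figure D3:**
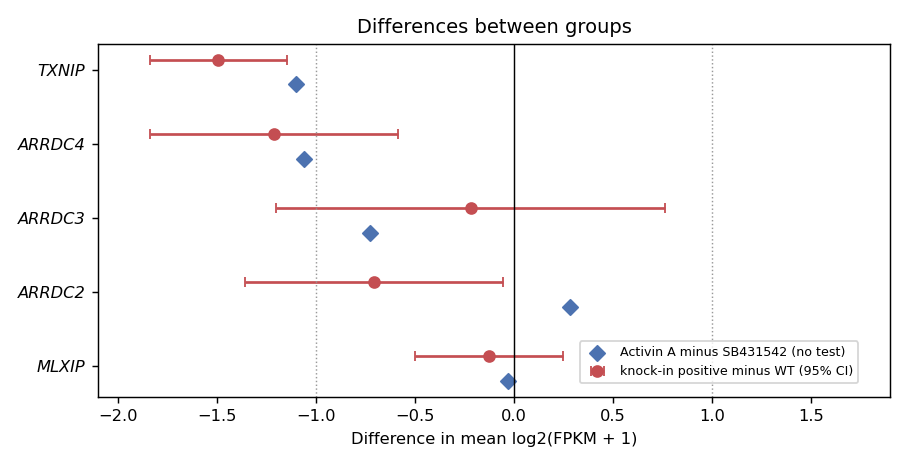
Difference in mean log2(FPKM + 1) (horizontal axis) for the 5 measured genes, with circles and 95% confidence intervals for knock-in minus WT and diamonds, with no interval or test, for Activin A minus SB431542; dotted lines mark differences of -1 and 1. TXNIP (-1.49 and -1.10) and ARRDC4 (-1.21 and -1.06) lie beyond -1 in both comparisons, and MLXIP lies near 0.

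The MLX and MAX network holds MondoA and the factors that partner it or compete on related DNA sites. Of its 12 genes, MLXIP included, 1 was called higher and 0 lower between knock-in and WT, beside 1.61% and 0.706% of all genes, with a median log2 fold change of 0.020 beside -0.0014 over all genes. MNT, a MAX-binding repressor that also pairs with MLX, was higher in knock-in cells, at 12.9 ± 0.718 FPKM against 5.61 ± 1.31 in WT (SD, n = 3, log2 fold change 1.09, limma adjusted p = 0.019). Its call was lost without knock-in library 1 or 2 or WT library 1, and over the 6 fits that left out 1 library the log2 fold change ran from 0.93 to 1.22. MLX, the obligate partner of MondoA, had means of 16.7 FPKM in WT and 17.9 in knock-in (log2 fold change 0.094, limma adjusted p = 0.62), and MLXIPL, the paralog known as ChREBP, of 0.267 and 0.210 FPKM (log2 fold change -0.055, limma adjusted p = 0.81). MLX and MLXIPL were named for their roles, outside the rule for named genes. MLXIP thus stood far above MLXIPL in every group. Between Activin A and SB431542 0 of the 11 other genes of the network were called in either direction, beside 0.0571% called higher and 0.0357% lower over all genes. At these shares a list of this size would seldom hold a call. Their median difference was 0.15 beside -0.0040 over all genes. Without overlap, 2 of the 11 were higher and 2 lower with Activin A, beside 9.19% and 10.8% of all genes. MNT was one of the lower ones, at 9.80 ± 1.14 FPKM with Activin A and 13.5 ± 0.727 with SB431542, the direction of TXNIP. It did not pass the test (log2 fold change -0.43, limma adjusted p = 0.20, and 0.065 with the line number as a block). MYC, the most abundant of the 11, was at 265 ± 41.2 FPKM with Activin A and 200 ± 22.8 with SB431542 without overlap (SD, n = 3, log2 fold change 0.40). Its limma adjusted p was 0.29, and 0.044 with the line number as a block, and its difference is short of the fold change threshold. MYCN was at 36.0 ± 3.03 and 27.7 ± 7.93 FPKM (limma adjusted p = 0.45, and 0.16 with the block).

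Among the facilitative glucose transporters, 11 of 14 family members had a row, 7 passed the filter and 0 were called in either comparison, with or without the replicate block. At the shares of all genes called (0.706% lower and 1.61% higher between knock-in and WT, 0.0357% and 0.0571% between the treatments, 0.186% and 0.521% with the block) a list of this size would seldom hold a call, so the count of 0 does not set the transporters apart. In each comparison their median difference in log2(FPKM + 1) was close to that of all genes, 0.0075 for knock-in minus WT and 0.016 for Activin A minus SB431542. SLC2A8, which encodes the intracellular transporter GLUT8, was the most abundant at 4.17 ± 0.968 FPKM in WT, 5.52 ± 0.350 in knock-in, 5.43 ± 0.217 with Activin A and 5.38 ± 0.532 with SB431542 (SD, n = 3 each). SLC2A5, the fructose transporter GLUT5, ranged widely within groups, at 1.41 ± 1.72 FPKM in WT, 3.63 ± 2.57 in knock-in, 3.50 ± 2.68 with Activin A and 1.64 ± 1.25 with SB431542. Neither gene passed the test in either comparison, with limma adjusted p from 0.23 to 0.97. SLC2A4, the insulin-responsive GLUT4 whose surface level TXNIP is known to limit, was at 0.508 to 0.835 FPKM in the group means and SLC2A2, the liver and islet transporter GLUT2, was at 0 in all 12 libraries. SLC2A10 was the one transporter with an adjusted p under the threshold, at 0.0706 ± 0.0719 FPKM in WT and 0.682 ± 0.212 in knock-in (log2 fold change 0.65, limma adjusted p = 0.026), short of the fold change threshold, where 4.88% of all genes had an adjusted p that low with a higher mean. Its WT libraries 1, 2 and 3 were at 0.0679, 0.144 and 0 FPKM. SLC2A10 thus passed the filter through the knock-in libraries, where it was high, and no conclusion is drawn from its test. SLC2A4, SLC2A2 and SLC2A10 were picked out with their values already seen.

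The wider list of genes known as targets of MondoA or ChREBP did not share one direction. Between knock-in and WT, 17 of these genes passed the filter, 3 were called lower, TXNIP and ARRDC4 among them, and 2 were called higher, beside 0.706% lower and 1.61% higher over all genes, with a median log2 fold change of -0.24 over the list. The third lower gene was RGS16, a regulator of G protein signalling, at 4.37 ± 0.328 FPKM in WT and 1.34 ± 0.408 in knock-in (SD, n = 3, log2 fold change -1.21, limma adjusted p = 0.013, named with its value already seen). Its call was lost without knock-in library 1, where the log2 fold change was -1.20 (adjusted p = 0.060). Between the treatments RGS16 had the opposite order to TXNIP, at 2.36 ± 0.857 FPKM with Activin A and 0.970 ± 0.137 with SB431542 without overlap, and did not pass the test (log2 fold change 0.74, limma adjusted p = 0.22). KLF10, a transcription factor that TGF-β signalling also induces, rose to 56.0 ± 11.2 FPKM in knock-in cells against 8.88 ± 3.29 in WT (log2 fold change 2.57, limma adjusted p = 0.0063). PFKFB3, which makes the sugar phosphate that drives glycolysis, rose from 2.10 ± 0.476 to 7.70 ± 1.23 FPKM (log2 fold change 1.49, limma adjusted p = 0.0092). KLF10 and PFKFB3 thus rose in the libraries in which TXNIP and ARRDC4 fell.

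Between Activin A and SB431542, 0 of the 16 other genes of this list were called in either direction, beside 0.0357% of all genes called lower and 0.0571% called higher. With the line number as a block, which raised the counts over all genes to 26 lower (0.186%) and 73 higher (0.521%), KLF10 was called higher with Activin A and ANGPTL4, an inhibitor of lipoprotein lipase, lower. KLF10 measured 89.4 ± 12.7 FPKM with Activin A and 38.6 ± 8.49 with SB431542 (SD, n = 3, log2 fold change 1.20, limma adjusted p = 0.075, and 0.045 with the block). ANGPTL4 measured 1.46 ± 0.374 and 4.96 ± 2.55 FPKM (log2 fold change -1.20, limma adjusted p = 0.21, and 0.048 with the block). KLF10 and TXNIP thus had opposite orders, KLF10 being highest and TXNIP lowest with Activin A. PFKFB3 overlapped between the treatments, at 7.07 ± 0.830 FPKM with Activin A and 6.91 ± 1.12 with SB431542 (log2 fold change 0.035, limma adjusted p = 0.94). The lipogenic targets FASN and SCD, which were abundant, measured 122 ± 3.89 against 129 ± 10.5 FPKM and 82.4 ± 6.60 against 98.2 ± 7.89 FPKM, and neither passed the test with or without the block.

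Lists of partners and effectors of the alpha-arrestins were examined in the same way, and their counts of 0 are read against the same shares of all genes, at which lists of 6 to 12 genes would seldom hold a call. Of 14 genes listed for the thioredoxin system, 12 had a row and were tested, while TXN, the thioredoxin that TXNIP binds and is named for, and GLRX were not analysed here. Of the 12, 0 were called in either comparison, with medians of -0.10 for knock-in minus WT and 0.14 for Activin A minus SB431542. Its most abundant members were the peroxiredoxins PRDX2 and PRDX3, with PRDX3 at 197 ± 21.9 FPKM in WT and 177 ± 13.4 in knock-in (limma adjusted p = 0.40). Of 8 WW-domain ubiquitin ligases of the NEDD4 family, to which alpha-arrestins recruit their cargo, 0 were called, with medians of -0.15 and -0.019, and the most abundant were ITCH at 17.4 ± 3.06 FPKM in WT and 14.0 ± 0.507 in knock-in and NEDD4L at 17.4 ± 4.26 and 14.6 ± 3.33 FPKM. Of 6 hexokinases, which make the glucose 6-phosphate that MondoA senses, 0 were called, with medians of 0.044 and -0.056. HK2 was at 18.3 ± 0.855 FPKM in WT and 25.1 ± 2.49 in knock-in without overlap (log2 fold change 0.43, limma adjusted p = 0.060), and HK1 was at 103 ± 24.1 and 99.3 ± 6.09 FPKM.

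Lists of other regulators known to induce TXNIP or its relatives were also examined. Of 13 genes known to rise with FOXO activity, 1 was called higher and 0 lower between knock-in and WT, beside 1.61% and 0.706% of all genes, and 0 in either direction between the treatments, beside 0.0571% and 0.0357%, with medians of 0.12 and 0.040. The called gene was IRS2, an adaptor of the insulin receptor, which rose from 2.36 ± 0.629 to 6.60 ± 2.05 FPKM (log2 fold change 1.16, limma adjusted p = 0.033), the opposite direction to TXNIP, and its call was lost when any library but WT library 3 was left out, with adjusted p from 0.059 to 0.087. Without overlap of the libraries, 5 genes of the list were higher in knock-in than in WT and 3 were lower, as TXNIP was, beside 19% and 16.7% of all genes. Of the higher ones, GADD45A, a growth arrest gene, was at 2.91 ± 1.22 FPKM in WT and 13.7 ± 11.6 in knock-in and did not pass the test (log2 fold change 1.68, limma adjusted p = 0.081), and BCL6, INSR and PDK4 had log2 fold changes of 0.46, 0.69 and 0.40 with limma adjusted p of 0.067, 0.060 and 0.14. Of the lower ones, PIK3IP1, an inhibitor of PI3 kinase, was at 3.06 ± 0.502 FPKM in WT and 1.43 ± 0.357 in knock-in (log2 fold change -0.75, limma adjusted p = 0.040), short of the fold change threshold. The sestrins SESN3 and SESN1 were at 22.7 ± 2.38 and 5.01 ± 1.21 FPKM in WT and at 11.2 ± 4.91 and 3.13 ± 0.474 in knock-in, and did not pass the test (log2 fold change -1.02 and -0.53, limma adjusted p = 0.055 and 0.12). Apart from IRS2 and SESN3, these genes were named with values already seen. Between the treatments, CDKN1B and SESN3, the most abundant of the list by their mean over all 12 libraries, were at 23.8 ± 2.63 and 9.23 ± 3.81 FPKM with SB431542, and neither passed the test against Activin A (log2 fold change 0.070 and 0.39, limma adjusted p = 0.83 and 0.60). Without 1 library the log2 fold change of SESN3 ran from 0.13 to 0.67. PDK4, which limits the entry of pyruvate into the citric acid cycle, was at 1.58 ± 0.419 FPKM with Activin A and 3.48 ± 0.612 with SB431542 without overlap, the direction of TXNIP (log2 fold change -0.80, limma adjusted p = 0.15, and 0.046 with the block), and INSR was also lower with Activin A without overlap (log2 fold change -0.41, adjusted p = 0.18). BCL6 went the other way without overlap, with a higher level under Activin A than the 0.786 ± 0.232 FPKM under SB431542 (log2 fold change 0.49, limma adjusted p = 0.23, and 0.048 with the block). The size of all 3 differences is short of a call. Of 7 glucocorticoid-responsive genes, 0 were called in either comparison, beside 1.61% higher and 0.706% lower over all genes between knock-in and WT and 0.0571% and 0.0357% between the treatments, with medians of 0.27 and -0.31. TSC22D3, a glucocorticoid-induced leucine zipper protein, was at 22.5 ± 3.54 FPKM with Activin A and 42.3 ± 3.83 with SB431542 without overlap (log2 fold change -0.89, limma adjusted p = 0.074, and 0.034 with the block). KLF9 was also lower with Activin A without overlap (log2 fold change -0.34, limma adjusted p = 0.32). Of the 7 genes, 6 had lower and 1 a higher mean with Activin A. The higher one was SGK1, a kinase, at 7.06 ± 1.79 and 4.06 ± 1.21 FPKM (log2 fold change 0.67, limma adjusted p = 0.32, and 0.033 with the block). KLF9, PER1 and SGK1 were named with their values already seen. DDIT4, a stress-induced inhibitor of mTOR, was at 34.2 ± 9.83 FPKM in WT, 53.2 ± 10.2 in knock-in, 45.4 ± 7.66 with Activin A and 56.5 ± 9.94 with SB431542, and passed the test in neither comparison.

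Single markers of other cell types moved with the groups in which TXNIP and ARRDC4 differed, and their part in those differences was not tested. ACTA2, the smooth muscle actin of pericytes, was at 1.39 ± 0.303 FPKM in WT and 13.7 ± 3.31 in knock-in (limma, log2 fold change 2.61, adjusted p = 0.0016), and at 8.32 ± 0.887 with Activin A and 19.4 ± 1.07 with SB431542 (log2 fold change -1.13, adjusted p = 0.035, and 0.090 to 0.161 without any 1 library). It was thus opposite to TXNIP between knock-in and WT and alike in direction between the treatments. Of the 8 pericyte genes, 3 had higher and 5 lower means with Activin A. Their summed level was lower with Activin A without overlap, at 44.8 to 50.6 against 59.7 to 61.0 FPKM. Without overlap, 2 genes were lower and 1 was higher with Activin A, beside 10.8% and 9.19% of all genes. The lower ones were ACTA2 and MCAM (log2 fold change -0.46, limma adjusted p = 0.28). The higher one was NOTCH3 (log2 fold change 0.41, limma adjusted p = 0.33). PDGFRB, the pericyte receptor for platelet-derived growth factor, rose to 9.28 ± 1.84 FPKM in knock-in against 2.32 ± 0.797 in WT (log2 fold change 1.64, adjusted p = 0.012). Between knock-in and WT, ACTA2 and PDGFRB were the 2 pericyte genes of 8 called higher, and 0 were called lower, beside 1.61% and 0.706% of all genes. These 2 were also the only ones without overlap, beside 19% of all genes higher and 16.7% lower. Means of 7 were higher and of 1, MCAM, lower (log2 fold change -0.023). Of 9 fibroblast markers tested between knock-in and WT, 2 were called higher and 0 lower, beside 1.61% and 0.706% of all genes. Means of 7 were higher and of 2 lower. Without overlap, 6 were higher and 1 was lower, beside 19% and 16.7% of all genes. The lower one was COL1A1 (log2 fold change -0.39, adjusted p = 0.16). Of the called genes, TWIST2 rose from 0.933 ± 0.700 to 4.98 ± 0.963 FPKM (log2 fold change 1.68, adjusted p = 0.020) and DCN from 3.14 ± 1.03 to 10.8 ± 4.12 FPKM (log2 fold change 1.49, adjusted p = 0.031). The TWIST2 call was lost without knock-in library 1 or 2 or WT library 2, and the DCN call without knock-in library 2 or 3 or WT library 1 or 2. DCN and FBLN1, the most abundant of that list by their mean over all 12 libraries, were at 17.1 ± 7.19 and 42.2 ± 6.46 FPKM with Activin A and at 7.42 ± 4.85 and 35.3 ± 5.38 with SB431542 and did not pass the test. With the line number as a block, the collagen genes COL1A2 and COL3A1 of the fibroblast list were called higher with Activin A (log2 fold change 1.59 and 3.08, limma adjusted p = 0.024 and 0.012, against 0.093 and 0.20 without the block), the direction opposite to TXNIP. Over all genes, 0.521% were called higher and 0.186% lower with the block. COL3A1 varied widely, at 42.9 FPKM in Activin A library 3 and 6.57 and 7.47 in libraries 1 and 2. With SB431542 it was at 0.0156, 0.215 and 2.73 FPKM in libraries 1, 2 and 3. COL3A1 thus passed the filter only with the Activin A libraries, where it was high, and no conclusion is drawn from its test. Means of 6 of the 9 fibroblast markers were higher and 3 lower with Activin A, TWIST2 being among the lower ones (log2 fold change -0.74, adjusted p = 0.42). With the block, 1 of 6 pluripotency markers tested was called lower with Activin A and 1 higher, beside 0.186% and 0.521% of all genes. LIN28A was the lower one (log2 fold change -1.55, limma adjusted p = 0.015, against 0.27 without the block). NANOG was the higher one (log2 fold change 3.18, limma adjusted p = 0.011 with the block). Between knock-in and WT, 2 of the 6, LIN28A and NANOG, were called higher and 0 lower, beside 1.61% and 0.706% of all genes. Means of 4 were higher and of 2 lower. LIN28A, a pluripotency marker, and ID1, a target of BMP signalling, were also called higher in knock-in than in WT, at 185 ± 90.8 against 40.2 ± 7.40 FPKM (log2 fold change 2.08, adjusted p = 0.018) and 6.82 ± 3.17 against 1.54 ± 0.302 FPKM (log2 fold change 1.56, adjusted p = 0.023). Both calls were lost without knock-in library 1 or WT library 1, and that of ID1 also without WT library 2.

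**Figure D4:**
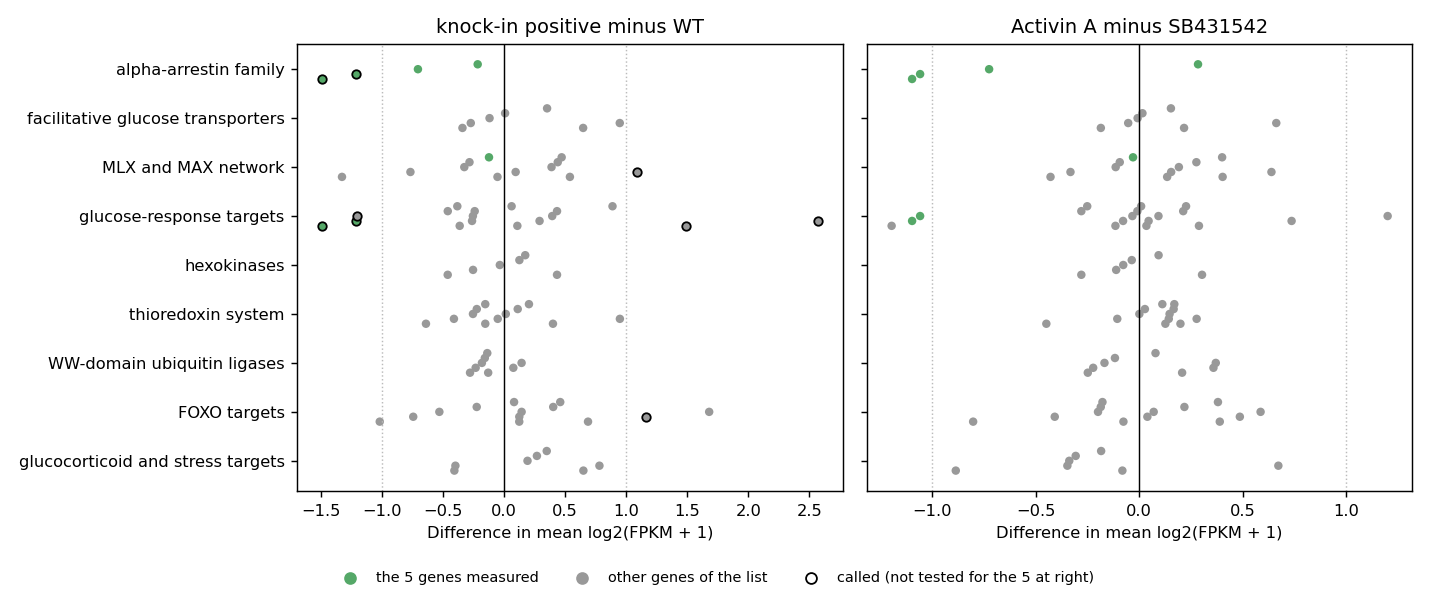
Difference in mean log2(FPKM + 1) (horizontal axes) of each gene that passed the filter in 9 lists, for knock-in minus WT (left) and Activin A minus SB431542 (right), with the 5 measured genes in green, other genes in grey and called genes ringed. TXNIP and ARRDC4 lie at the lower edge of the arrestin list in both panels, and the glucose-response list holds genes on both sides, from TXNIP at -1.49 to KLF10 at 2.57 on the left.

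Genes with the pattern most like TXNIP were ranked by Pearson correlation of log2(FPKM + 1) over the 12 libraries among 13695 genes. The 5 most like TXNIP were ARID4A (0.970), CGRRF1 (0.953), VPS13A (0.953), PIGH (0.950) and UBR3 (0.946), and the 5 most like ARRDC4 were VPS13A (0.960), EPB41L5 (0.955), NCKAP1 (0.949), TMEM64 (0.941) and CDC42BPA (0.939). VPS13A was in both sets. ARRDC4 ranked 20 among genes most like TXNIP and TXNIP ranked 12 among those most like ARRDC4, while ARRDC3, ARRDC2 and MLXIP ranked 3252, 3512 and 5340 for TXNIP. The like genes had a smaller range than TXNIP. ARID4A, a chromatin-associated protein, was at 6.11 ± 0.204 FPKM in WT, 3.55 ± 0.0727 in knock-in, 3.20 ± 0.178 with Activin A and 4.54 ± 0.138 with SB431542 (SD, n = 3 each), the same order of groups. These correlations describe 4 groups of libraries and share their depth and composition, so they carry no test.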

How the data were processed

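The authors deposited FPKM values for each gene in separate tables for the knock-in and WT comparison and for the treatment comparison, 6 libraries in each, and these were used unchanged. Per the labels and the study's methods, the authors trimmed reads with Trim Galore, aligned them to Ssc 11.1 with HISAT2 2.0.4 and used StringTie 1.3.3 and featureCounts 1.6.4 with Ensembl release 97, and they tested counts with DESeq2. Of the rows, 17451 carried a symbol and 18416 did after RefSeq's Sscrofa11.1 table and a list of Ensembl names were consulted.

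Genes with at least 0.1 FPKM in 3 of 6 libraries were kept, 1 was added before log2, and limma 3.58.1 with a variance trend was run in R 4.3.3 within each table, never across tables, with two-sided tests and Benjamini-Hochberg adjustment over all genes tested. The study's own tests used counts, so the calls here need not coincide with them. Fits were tested on simulated data. Members were also given an exact permutation test one by one. Python 3.11.15 and matplotlib 3.10.9 were used for summaries and plots.

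The members and gene lists were chosen with earlier results of these data known. From each list, every called gene was named, up to 4 per comparison by fold change, or the 2 most abundant genes where none was called. A further rule named the 5 genes most like TXNIP and ARRDC4. Same-numbered libraries were taken as paired between Activin A and SB431542, where the labels number the lines alike and deviations from group means correlated at 0.400, 0.587 and 0.535 across genes. The numbers did not pair knock-in with WT libraries, where the correlations were -0.018, 0.0087 and 0.094. Alternatives were no filter on low values or one of 1 FPKM, a pseudocount of 0.1 or 0.01, rescaling to TPM or by median ratios, no variance trend, the replicate block, leaving out each library, and, chosen after seeing the data, scaling to the FPKM outside mitochondrial genes. Marker sums and library checks used the same tables. Exon boundaries, strand and sequences were not analysed here.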

Additional observations from a re-analysis of the deposited data

How the results depend on the processing

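TXNIP stayed called lower in knock-in cells in all 15 alternatives, with log2 fold changes from -1.94 to -1.42. ARRDC4 stayed lower in all 15 and lost its call in 7, with no filter (-1.21, adjusted p = 0.076), with the replicate block (-1.21, adjusted p = 0.080) and in 5 of 6 fits without 1 library. All 6 fits ran from -1.48, where the call was kept, to -0.94. Without 1 library, the log2 fold change ran from -1.05 to -0.49 for ARRDC2, where 1 fit gained a call, from -0.77 to 0.089 for ARRDC3, from -0.24 to -0.055 for MLXIP and from -0.13 to 0.15 for HK1. For Activin A minus SB431542 the TXNIP difference was -1.75 and -1.87 with pseudocounts of 0.1 and 0.01 and -1.50 in TPM, and that of ARRDC4 was -1.28, -1.30 and -1.23, since a smaller pseudocount relative to the values compresses low genes less. ARRDC2 was at 0.46 and 0.50 with these pseudocounts. Without 1 library these differences ran from -1.15 to -1.05 for TXNIP, from -1.08 to -1.02 for ARRDC4, from 0.21 to 0.38 for ARRDC2, from -0.81 to -0.58 for ARRDC3 and from -0.11 to 0.045 for MLXIP. SLC2A8 turned to -0.0078 in TPM and -0.0070 with mitochondrial genes set aside, and ran from -0.045 to 0.075 without 1 library, as CDKN1B did from -0.012 to 0.15.

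Genes called higher in knock-in numbered 225, and 346 with a pseudocount of 0.1. Those called lower numbered 99, and 192 and 181 with pseudocounts of 0.1 and 0.01, 42 with no filter and 60 with the replicate block. Without 1 library the counts ran from 117 to 303 higher and from 28 to 143 lower. The knock-in and WT numbers share only a name, and the block lowered these counts. Between Activin A and SB431542, 8 genes were called higher and 5 lower. The counts were 5 and 3 with a pseudocount of 0.01, 3 and 2 with no filter, 2 and 3 with a filter of 1 FPKM, 3 higher without the variance trend, and 73 and 26 with the replicate block. Without 1 library they ran from 0 to 4 higher and from 0 to 1 lower. At an unadjusted p of at most 0.05, 1797 genes passed. The causes of these shifts in counts were not tested.

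Absolute depth is unknown, WT libraries were the shallowest, and 3 libraries a group keep the exact permutation test from going below 0.1. Tests of list genes between treatments without the block had few calls over all genes, so a missing call there says little. Doses and times of the sequenced cells are not in the labels.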
